A study of Homo sapiens with 24 samples.

Results

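The 9 genes described here form the network around the transcription factor MYC: MYC (NCBI Gene 4609), its dimerisation partner MAX (4149), the repressor partners of MAX, namely MXD1 (4084), MXI1 (4601), MXD3 (83463), MXD4 (10608), MNT (4335) and MGA (23269), and the MAX-like factor MLX (6945). They were chosen by name, and all 9 were found among the 28395 gene identifiers of the deposited count tables. All 9 had enough counts to be tested in both cell lines. RNA levels were measured by 3′ RNA sequencing in 2 established human lines of multiple myeloma, a cancer of plasma cells: MM1.S, whose label gives wild-type p53, and JJN3, given as null for p53. Each line was kept for 24 h in vehicle, in 500 nM CX-5461, in 50 nM panobinostat or in both drugs, which makes 8 groups of 3 libraries. CX-5461 inhibits RNA polymerase I, the enzyme that transcribes ribosomal RNA genes, and panobinostat inhibits histone deacetylases. The labels name no further agent or allele, and each p53 status is represented by 1 line.

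MYC binds DNA only as a dimer with MAX, at E-box sequences such as CACGTG, and activates genes of growth, nucleotide synthesis and ribosome production. The MXD proteins, MNT and MGA compete for MAX and repress genes at the same sequences, the MXD proteins and MNT by recruiting the SIN3 complex with its histone deacetylases and MGA as part of the polycomb complex PRC1.6. MLX takes the place of MAX beside the glucose-sensing factors MondoA (MLXIP) and ChREBP (MLXIPL). In the plasma cell lineage MYC is normally silenced by PRDM1, whereas in myeloma it is often expressed from a rearranged locus and sustained by IRF4.

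Total counts per library ranged from 4751893 to 7305069. Of 10 plasma cell markers, 10 in MM1.S and 9 in JJN3 exceeded 1 CPM (counts scaled by the library's effective total) with vehicle, whereas the summed level of 5 B cell markers was at most 1.397 CPM. JJN3 also carried 543 CPM of HBB, a globin gene, in the vehicle group. On the second principal component of JJN3 the 4 libraries of replicate 2, 1 per treatment, lay at -28.3 to -16.1 and the other 8 at 2.94 to 18.05. Libraries of the same number also deviated together in JJN3. For the 9 members, JJN3 results are therefore given without replicate 2 where this changes a call or a called value markedly. Those with the replicate number as a block are given on the same terms. Counts over the other gene lists come from the fit without a block unless stated, and several were larger with it. The labels do not say whether replicates were separate cultures, so p-values measure only the spread between these libraries, which may be technical. In bulk samples of this kind, fewer cells of a type and less RNA per cell cannot be told apart.

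The promoters of the network genes are themselves places where its dimers could bind, so the E-box of MYC and MAX was searched in them. A window of 250 bases before to 50 after the transcription start was found for 8 of the 9 genes, in 13 windows, in RefSeq sequences of GRCh38.p14. The gene without a window was MYC itself, so its promoter was not searched. CACGTG, which reads the same on both strands, was present in 3 of the 13, those of MXD4, MNT and MLX, against 7.26% of all 35116 windows. The 250 bases before the start are shown for these 3 and for MXD1, the member that rose most, which has no match. CACGTG is in capitals, and each sequence is written 5′ to 3′ along the gene's strand. The locations are chr2:69914859-69915108, plus strand for MXD1, chr4:2262110-2262359, minus strand for MXD4, chr17:2401061-2401310, minus strand for MNT and chr17:42566850-42567099, plus strand for MLX.
MXD1: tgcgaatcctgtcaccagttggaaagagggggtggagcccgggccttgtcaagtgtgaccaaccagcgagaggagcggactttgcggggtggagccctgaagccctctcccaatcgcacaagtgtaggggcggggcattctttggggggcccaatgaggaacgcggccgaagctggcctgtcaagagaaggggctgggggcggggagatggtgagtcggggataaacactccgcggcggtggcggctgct
MXD4: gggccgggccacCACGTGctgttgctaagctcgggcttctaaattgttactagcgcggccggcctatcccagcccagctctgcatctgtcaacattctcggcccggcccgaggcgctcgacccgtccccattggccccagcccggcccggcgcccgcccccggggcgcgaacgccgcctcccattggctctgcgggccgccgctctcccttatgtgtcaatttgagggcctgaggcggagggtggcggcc
MNT: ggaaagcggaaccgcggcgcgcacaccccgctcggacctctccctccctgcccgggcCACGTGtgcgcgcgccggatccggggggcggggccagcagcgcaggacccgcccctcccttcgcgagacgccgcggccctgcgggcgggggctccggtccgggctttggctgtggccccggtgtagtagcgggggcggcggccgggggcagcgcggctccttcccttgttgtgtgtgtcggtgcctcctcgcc
MLX: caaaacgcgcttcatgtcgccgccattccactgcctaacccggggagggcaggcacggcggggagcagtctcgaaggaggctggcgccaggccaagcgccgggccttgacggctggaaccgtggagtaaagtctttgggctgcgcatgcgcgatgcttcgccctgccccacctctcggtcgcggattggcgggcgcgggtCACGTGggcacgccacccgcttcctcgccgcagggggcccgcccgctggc
The motif begins 238 bases before the start in MXD4, 193 in MNT and 50 in MLX. A second sequence, CACGCG, was also searched on both strands. It was present in windows of MXI1, MXD3 and MGA, against 11.4% of all 35116 windows. A match is a description of the letters and not of binding.

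MYC fell, and MAX, MXD1 and MXI1 rose, with panobinostat in MM1.S. Numbers of members called are given beside the share of all genes called, and their order over the treatments and lines is not a result about the members. Changes were tested with edgeR's quasi-likelihood test over all genes of a line, and a gene is called higher or lower at a Benjamini-Hochberg adjusted p under 0.05. Log2 fold changes are given ± SE, levels as CPM in replicates 1, 2 and 3 or as mean ± SD of the 3. The 3 treatments of a line were compared with the same 3 vehicle libraries, so these comparisons are not independent of each other. In MM1.S, CX-5461 called 2 members higher (MXD1, MXD3) and 1 lower (MYC) of 9, beside 16.7% of all genes tested. Panobinostat called 4 higher (MAX, MXD1, MXI1, MXD4) and 2 lower (MYC, MGA), beside 69.8% of all genes. Both drugs called the same 4 higher and 3 lower (MYC, MXD3, MGA), beside 70.2%. These 2 shares of the members, 6 and 7 of 9, are close to the background, as are those of JJN3 given next. In size the fall of MYC lay near the extreme: 0.856% of the genes tested had a lower log2 fold change than MYC with panobinostat.

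In JJN3, CX-5461 called 0 of 9 members, as it called 0.0% of all genes. At an unadjusted p under 0.05 the count over all genes was 633, and DESeq2 called 19 genes, none of them a member. With the replicate block MXD4 alone of the members was called, as lower (log2 fold change -0.41 ± 0.11, edgeR adjusted p = 0.0463), beside 157 of 11411 genes. Panobinostat called MXD4 higher and MYC lower, beside 26.0% of all genes, and both drugs called MXD4 higher and MYC and MXD3 lower, beside 39.2%. With the block, panobinostat called 3 members (MYC, MXD4, MNT), beside 4784 of 11411 genes in place of 2964. Both drugs called 6 with the block (MYC, MAX, MXI1, MXD3, MXD4, MGA). Over all genes both drugs called 4472 without it and up to 6104 in the alternatives, so the background rose too. In MM1.S the block added 1 call, MNT with CX-5461 (edgeR adjusted p = 0.0455 against 0.0717 without it).

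**Figure D1:**
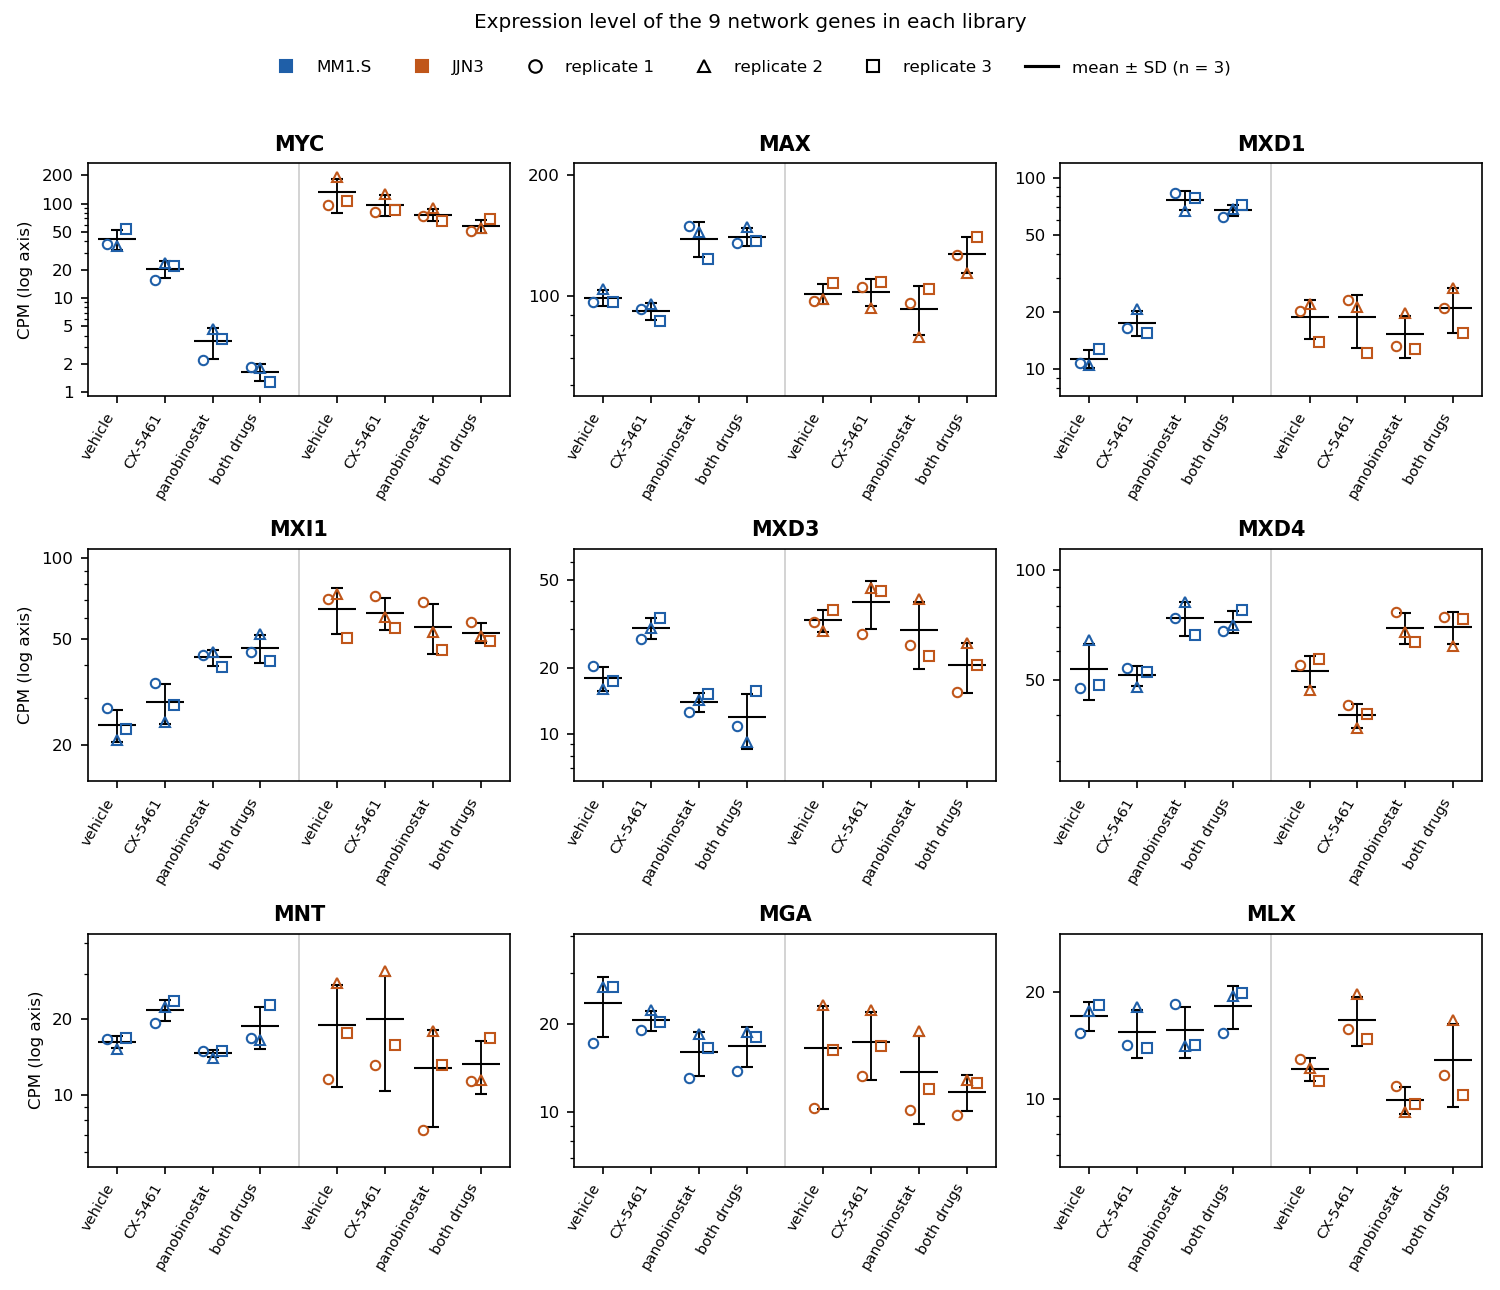
Each panel plots 1 network gene, with CPM on a log axis and the 4 treatments of MM1.S (blue) and JJN3 (orange) from left to right; symbols are single libraries by replicate number and bars the mean ± SD of 3. MYC stepped down across the MM1.S groups from 42.4 ± 9.69 to 1.65 ± 0.328 CPM while MXD1 stepped up from 11.3 ± 1.21 to 76.3 ± 8.58 CPM with panobinostat.

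**Figure D2:**
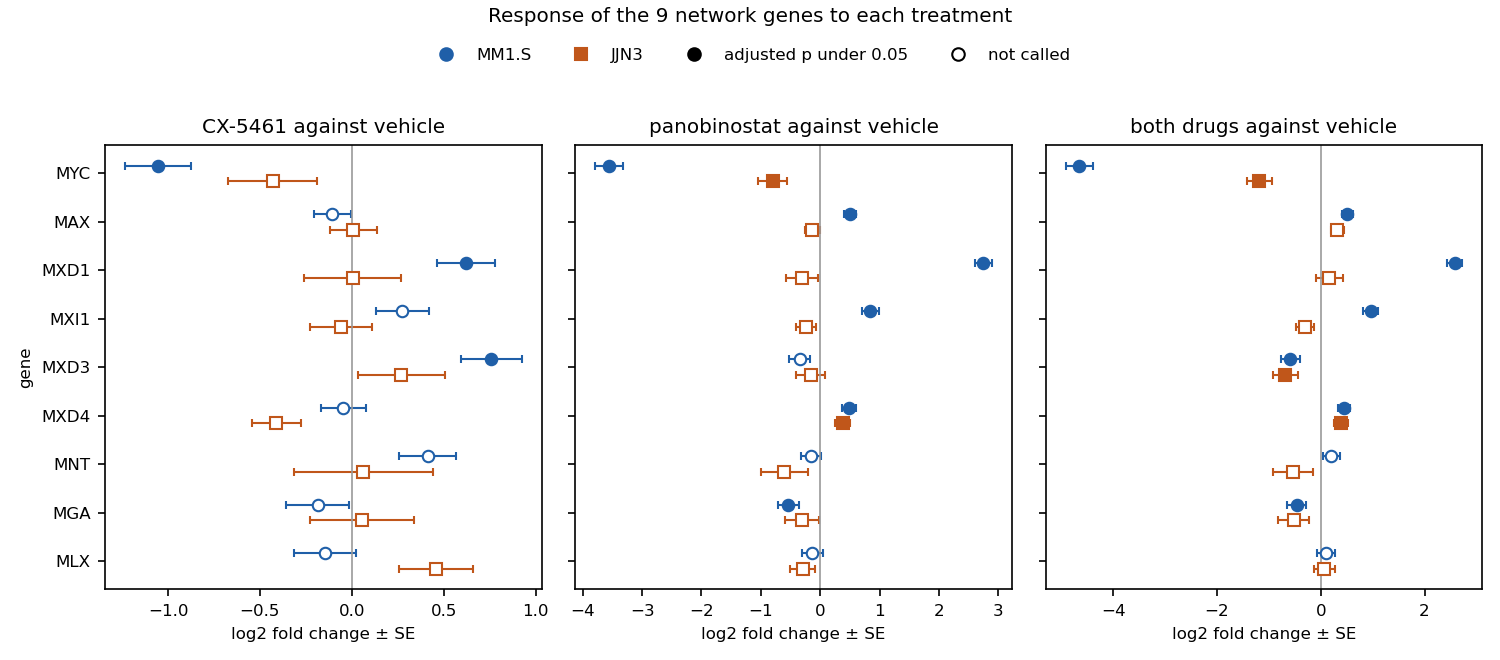
Log2 fold change against vehicle ± SE for the 9 genes (rows) with CX-5461, panobinostat and both drugs (panels, each with its own scale); circles are MM1.S, squares JJN3, and filled symbols have an edgeR adjusted p under 0.05. With panobinostat MYC stood at -3.55 in MM1.S and -0.80 in JJN3, and MXD1 at 2.75 and -0.31.

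MYC fell in every treated group of MM1.S. The vehicle libraries had 37.5, 36.03 and 53.5 CPM, and those with CX-5461 had 15.7, 23.4 and 22.04 CPM. With panobinostat the values were 2.19, 4.69 and 3.72 CPM, and with both drugs 1.87, 1.81 and 1.28 CPM. No treated library overlapped the vehicle group, and the 4 groups did not overlap each other. The fall was 2.08-fold with CX-5461 (log2 fold change -1.05 ± 0.18, edgeR adjusted p = 0.000164), 11.8-fold with panobinostat (-3.55 ± 0.23, edgeR adjusted p = 1.24e-12) and 25.2-fold with both (-4.66 ± 0.27, edgeR adjusted p = 7.26e-14). The lowest values rest on few reads, 11, 27 and 20 counts with panobinostat and 10, 11 and 7 with both drugs.

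MYC in JJN3 began higher than in MM1.S and fell with panobinostat, alone or with CX-5461. The JJN3 vehicle libraries had 97.2, 191 and 107 CPM, and replicate 2 stood out in this group and again with CX-5461, where the values were 81.6, 126 and 85.9 CPM. They were 74.6, 89.03 and 66.2 CPM with panobinostat and 51.8, 54.7 and 68.6 CPM with both drugs. The libraries with panobinostat, alone or with CX-5461, lay below all vehicle libraries, and those with CX-5461 alone overlapped them. With CX-5461 the log2 fold change was -0.43 ± 0.24 (edgeR adjusted p = 0.921). It was -0.80 ± 0.25 with panobinostat (edgeR adjusted p = 0.0276) and -1.18 ± 0.25 with both (edgeR adjusted p = 0.00165). Without replicate 2 the values were -0.56 (edgeR adjusted p = 0.0196) and -0.78 (edgeR adjusted p = 0.00175), the second smaller by more than 1.5 times. The panobinostat call was lost when vehicle replicate 2 (-0.44, adjusted p = 0.101 by edgeR), panobinostat replicate 1 (-0.79, adjusted p = 0.0819) or panobinostat replicate 3 (-0.71, adjusted p = 0.0979) was left out alone. Within each replicate number, MYC was lower than in the vehicle library in 3 of 3 pairs under all 3 treatments.

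Across the 8 groups MYC was ordered JJN3 vehicle (132 ± 51.7 CPM, SD, n = 3), JJN3 with CX-5461 (97.9 ± 24.7), with panobinostat (76.6 ± 11.6) and with both drugs (58.4 ± 8.99), then MM1.S vehicle (42.4 ± 9.69), with CX-5461 (20.4 ± 4.09), with panobinostat (3.53 ± 1.26) and with both (1.65 ± 0.328). Neighbours from JJN3 vehicle to MM1.S vehicle overlapped in their libraries, and the last 4 groups stood apart from each other. MYC in vehicle was 3.095-fold higher in JJN3 than in MM1.S (log2 fold change 1.63 ± 0.23, edgeR adjusted p = 1.56e-06; 1.32 without replicate 2 of JJN3). The highest group mean was 79.6 times the lowest, whereas for MAX this ratio was 1.53.

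MAX, the partner that MYC and its antagonists share, rose with panobinostat in MM1.S. Its vehicle libraries had 96.4, 104 and 96.4 CPM, those with panobinostat 149, 144 and 123 CPM and those with both drugs 135, 148 and 137 CPM, with no overlap. The log2 fold changes were 0.50 ± 0.10 and 0.51 ± 0.10 (edgeR adjusted p = 8.46e-05 and 5.66e-05), and -0.11 ± 0.10 with CX-5461 (edgeR adjusted p = 0.515). In JJN3 the libraries had 97.2, 98.5 and 108 CPM with vehicle, 105, 93.2 and 108 with CX-5461, 96.1, 78.9 and 104 with panobinostat and 127, 114 and 140.2 with both drugs. All 3 libraries with both drugs were above all vehicle libraries, yet the log2 fold change of 0.32 ± 0.13 did not pass (edgeR adjusted p = 0.0529). It passed with the replicate block (0.00342) and without replicate 2 (0.36, edgeR adjusted p = 0.0404).

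MXD1, the founding member of the MXD repressors, was the member that rose most. In MM1.S it had 10.8, 10.5 and 12.7 CPM with vehicle and 16.5, 20.6 and 15.5 CPM with CX-5461. With panobinostat it had 83.5, 66.8 and 78.8 CPM, and with both drugs 62.7, 68.8 and 71.8 CPM. Every treated library was above every vehicle library. The rise was 1.54-fold with CX-5461 (0.62 ± 0.16 on the log2 scale, edgeR adjusted p = 0.0069), 6.73-fold with panobinostat (2.75 ± 0.14, edgeR adjusted p = 1.1e-14) and 5.99-fold with both (2.58 ± 0.14, edgeR adjusted p = 3.51e-14). The CX-5461 call was lost without CX-5461 replicate 2 (0.49, adjusted p = 0.0566 by edgeR).

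In JJN3 the MXD1 libraries had 20.2, 21.97 and 13.8 CPM with vehicle, 22.9, 21.2 and 12.1 with CX-5461, 13.3, 19.6 and 12.8 with panobinostat and 20.9, 26.6 and 15.5 with both drugs. All treated groups overlapped the vehicle group. The log2 fold changes were 0.0039 ± 0.26 with CX-5461, -0.31 ± 0.27 with panobinostat and 0.16 ± 0.26 with both, and none passed (edgeR adjusted p = 1, 0.432 and 0.653). In vehicle MXD1 was 1.63-fold higher in JJN3 than in MM1.S (0.70 ± 0.23, edgeR adjusted p = 0.00843). The 2 panobinostat groups of MM1.S overlapped each other and stood above the other 6 groups, of which MM1.S vehicle was the lowest.

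MXI1, also called MXD2, rose with panobinostat in MM1.S by 1.79-fold. Its vehicle libraries had 27.4, 20.96 and 22.95 CPM, those with panobinostat 43.6, 44.8 and 39.3 and those with both drugs 44.8, 52.2 and 41.4, again without overlap (log2 fold changes 0.84 ± 0.14 and 0.96 ± 0.14, edgeR adjusted p = 1.2e-05 and 1.57e-06). With CX-5461 the libraries had 34.1, 24.4 and 28.3 CPM, overlapping vehicle (0.28 ± 0.14, edgeR adjusted p = 0.205). In JJN3 MXI1 had 70.7, 73.8 and 50.2 CPM with vehicle, which was 2.71-fold the MM1.S level (log2 fold change 1.44 ± 0.17, edgeR adjusted p = 9.14e-09). It had 72.00, 60.4 and 54.98 CPM with CX-5461, 68.5, 52.9 and 45.2 with panobinostat and 57.8, 51.4 and 49.2 with both drugs. These groups overlapped vehicle, and the log2 fold change with both drugs was -0.30 ± 0.17 (edgeR adjusted p = 0.173, 0.0242 with the replicate block and 0.534 without replicate 2).

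MXD3, a family member described in dividing cells, rose with CX-5461 and fell with both drugs in MM1.S. It had 20.3, 15.9 and 17.3 CPM with vehicle and 27.1, 30.2 and 33.6 with CX-5461, a 1.69-fold rise (0.76 ± 0.17, edgeR adjusted p = 0.00205). With panobinostat it had 12.5, 14.2 and 15.3 CPM (-0.34 ± 0.18, edgeR adjusted p = 0.093), and with both drugs 10.9, 9.22 and 15.7 CPM (-0.58 ± 0.18, edgeR adjusted p = 0.00681). Both panobinostat groups lay below vehicle and the CX-5461 group above it. When libraries were scaled by total count alone, the call with both drugs was lost (-0.41, adjusted p = 0.0522 by edgeR). In JJN3 the vehicle libraries had 32.3, 29.4 and 36.6 CPM, 1.83-fold the MM1.S level (0.87 ± 0.22, edgeR adjusted p = 0.000942). With CX-5461 they had 28.3, 45.9 and 44.5 CPM and with panobinostat 25.4, 41.1 and 22.5 CPM, both overlapping vehicle. With both drugs they had 15.5, 25.97 and 20.5 CPM, below all vehicle libraries (-0.68 ± 0.24, edgeR adjusted p = 0.035; -0.96 and 0.0047 without replicate 2). That call was lost with scaling by total count alone (-0.57, adjusted p = 0.0805 by edgeR) and when vehicle replicate 1 (-0.72, adjusted p = 0.0567), vehicle replicate 3 (-0.61, adjusted p = 0.105), or replicate 1 (-0.51, adjusted p = 0.159) or 3 (-0.69, adjusted p = 0.0762) with both drugs was left out.

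MXD4 was the one repressor called higher with panobinostat in both lines. In MM1.S it had 47.6, 64.4 and 48.4 CPM with vehicle, 73.9, 81.9 and 66.3 with panobinostat and 68.2, 70.98 and 77.8 with both drugs, and the treated libraries were all above vehicle (log2 fold changes 0.48 ± 0.12 and 0.45 ± 0.12, edgeR adjusted p = 0.00103 and 0.00192). In JJN3 it had 55.1, 47.00 and 57.04 CPM with vehicle, 76.99, 67.7 and 63.6 with panobinostat and 74.7, 61.9 and 73.4 with both drugs, again all above (0.38 ± 0.13 and 0.39 ± 0.13, edgeR adjusted p = 0.0415 and 0.0227). Without replicate 2 of JJN3 the panobinostat value was 0.30 and no longer passed (edgeR adjusted p = 0.128), while that with both drugs was 0.39 and passed (0.042). The JJN3 panobinostat call was lost when any 1 of 8 libraries was left out: vehicle replicate 1, 2 or 3, panobinostat replicate 1 or 2, CX-5461 replicate 1 or 3, or replicate 1 with both drugs (edgeR adjusted p = 0.0501 to 0.191). That with both drugs was lost without vehicle replicate 1 or 2, or replicate 1 or 3 with both drugs (0.0544 to 0.127). Both were also lost without the filter on low counts (edgeR adjusted p = 0.12 and 0.0881). With CX-5461 MXD4 had 54.02, 47.9 and 52.6 CPM in MM1.S, overlapping vehicle. In JJN3 it had 42.8, 36.9 and 40.3 CPM with CX-5461, below all vehicle libraries (-0.41 ± 0.13, edgeR adjusted p = 0.722, called with the block as given above).

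MNT, a broadly expressed repressor that binds MAX or MLX, was called in no comparison with vehicle in the fit without a block. With scaling by total count alone it passed in MM1.S with CX-5461 (0.49, edgeR adjusted p = 0.0344) and both drugs (0.38, edgeR adjusted p = 0.0424). Without the filter on low counts it passed in JJN3 with panobinostat (-0.62, edgeR adjusted p = 0.0284) and both drugs (-0.57, edgeR adjusted p = 0.0312). In MM1.S it had 16.7, 15.3 and 16.8 CPM with vehicle and 19.3, 22.3 and 23.4 with CX-5461, all above vehicle (0.41 ± 0.16, edgeR adjusted p = 0.0717). With panobinostat it had 14.9, 14.1 and 14.9 CPM, all below vehicle (-0.15 ± 0.17, edgeR adjusted p = 0.432), and with both drugs 16.9, 16.5 and 22.8 CPM. In JJN3 MNT followed the replicate number: replicate 2 had the highest value with vehicle (11.6, 27.7 and 17.6 CPM), CX-5461 (13.1, 30.9 and 15.8) and panobinostat (7.32, 17.8 and 13.2), though not with both drugs (11.4, 11.5 and 16.9). The panobinostat libraries were below the vehicle library of their number in 3 of 3 pairs, with log2 ratios of -0.66, -0.64 and -0.42. The fit gave -0.60 ± 0.39 (edgeR adjusted p = 0.288), 0.0425 with the replicate block and 0.222 without replicate 2.

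MGA, the large scaffold protein of PRC1.6, fell with panobinostat in MM1.S. It had 17.2, 26.9 and 26.8 CPM with vehicle, 13.1, 18.6 and 16.6 with panobinostat and 13.9, 18.8 and 18.05 with both drugs, and the low vehicle replicate 1 overlapped both treated groups. The log2 fold changes were -0.53 ± 0.18 and -0.47 ± 0.18 (edgeR adjusted p = 0.0111 and 0.0235). Both calls were lost when libraries were scaled by total count alone (edgeR adjusted p = 0.0661 and 0.165) and without vehicle replicate 3 (0.0687 and 0.118), and that with both drugs also without vehicle replicate 2 (0.0723) or replicate 1 with both drugs (0.0931). With CX-5461 it had 19.1, 22.4 and 20.4 CPM, within the vehicle range. In JJN3 MGA had 10.4, 23.2 and 16.4 CPM with vehicle, 13.3, 22.3 and 16.8 with CX-5461, 10.2, 18.9 and 12.03 with panobinostat and 9.82, 12.9 and 12.6 with both drugs. Replicate 2 was the highest in each of these 4 groups, and the log2 fold change with both drugs was -0.52 ± 0.29 (edgeR adjusted p = 0.168, 0.0209 with the replicate block and 0.401 without replicate 2).

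MLX, the partner of MondoA and ChREBP, was called in no comparison of treatments. In MM1.S its libraries had 15.3, 17.7 and 18.3 CPM with vehicle, 14.2, 18.1 and 13.9 with CX-5461, 18.5, 14.1 and 14.2 with panobinostat and 15.4, 19.4 and 19.9 with both drugs. All these groups overlapped, and the log2 fold changes against vehicle ran from -0.15 to 0.10. In JJN3 it had 12.98, 12.2 and 11.2 CPM with vehicle and 15.7, 19.7 and 14.7 with CX-5461, all above vehicle (0.46 ± 0.20, edgeR adjusted p = 0.869). With panobinostat it had 10.9, 9.25 and 9.700 CPM, all below vehicle (-0.29 ± 0.21, edgeR adjusted p = 0.334), and with both drugs 11.7, 16.7 and 10.3 CPM.

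Between the lines without drug, 4 members were higher in JJN3 (MYC, MXD1, MXI1, MXD3) and 1 was lower (MLX), beside 63.7% of all genes. MLX had a log2 fold change of -0.50 ± 0.19 (edgeR adjusted p = 0.0235), a call lost with the replicate block (0.0766), without replicate 2 of JJN3 (0.0518), without the filter on low counts (0.0977), and without any 1 of 8 libraries: JJN3 vehicle replicate 1, 2 or 3, MM1.S vehicle replicate 2 or 3, MM1.S panobinostat replicate 2 or 3, or JJN3 CX-5461 replicate 3 (0.0506 to 0.147). MGA, at -0.49 ± 0.24, was not called (edgeR adjusted p = 0.0745) and became so with the block and without replicate 2 (0.00317 and 0.00515). MAX and MXD4 had values of 0.035 ± 0.11 and -0.0059 ± 0.13. The line and every other property of these cultures cannot be told apart here, since each line stands for 1 p53 status.

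The difference between the lines in their response was tested directly, by subtracting the MM1.S log2 fold change from the JJN3 one in 1 fit of all 24 libraries. For CX-5461 it called 0 of 9 members, beside 1.32% of all genes. MYC, at 0.63 ± 0.33, was not shown to respond differently to CX-5461 in the 2 lines (edgeR adjusted p = 0.508). For panobinostat 4 members were called, beside 33.3% of all genes: MYC at 2.78 ± 0.40 (edgeR adjusted p = 8.9e-06), MXD1 at -3.04 ± 0.31 (6.21e-09), MXI1 at -1.05 ± 0.23 (0.000662) and MAX at -0.61 ± 0.16 (0.00339). MYC fell in both lines and by more in MM1.S, while the other 3 rose in MM1.S beside JJN3 values of -0.31, -0.23 and -0.14. For the combination 3 were called, beside 32.8% of all genes: MYC at 3.49 ± 0.45 (edgeR adjusted p = 2.06e-06), MXD1 at -2.40 ± 0.30 (2.93e-07) and MXI1 at -1.25 ± 0.23 (9.34e-05). All 7 differences also passed with the replicate block and without replicate 2 of JJN3. For MXD4, the member called in both lines, the difference was -0.086 ± 0.18 with panobinostat (edgeR adjusted p = 0.771).

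Adding CX-5461 to panobinostat changed no member in the fit, in either line: 0 of 9 in MM1.S beside 4.08% of all genes, and 0 of 9 in JJN3 beside 0.903%. With single libraries left out these backgrounds of 491 and 103 genes ranged from 175 (without panobinostat replicate 3) to 1177 (without panobinostat replicate 1) in MM1.S and from 0 (without replicate 1 with both drugs) to 156 (without vehicle replicate 2) in JJN3. MYC in MM1.S was lower with both drugs than with panobinostat in every library, from 1.28 to 1.87 against 2.19 to 4.69 CPM. The log2 fold change was -1.10 ± 0.38 (edgeR adjusted p = 0.0969). It passed without the filter on low counts (-1.10, adjusted p = 0.0322 by edgeR) and without panobinostat replicate 1 (-1.34, adjusted p = 0.0231 by edgeR). MAX in JJN3 was higher with both drugs than with panobinostat in every library (0.46 ± 0.13, edgeR adjusted p = 0.0925), and passed with the replicate block (0.46 ± 0.09, edgeR adjusted p = 0.000887) and with DESeq2 (adjusted p = 0.0417). Without replicate 2 it was 0.42 (edgeR adjusted p = 0.17).

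Adding panobinostat to CX-5461 moved 6 members in MM1.S, with MAX, MXD1, MXI1 and MXD4 higher and MYC and MXD3 lower, beside 69.8% of all genes. MYC fell by 12.1-fold (-3.60 ± 0.28, edgeR adjusted p = 2.86e-11) and MXD3 by 2.54-fold (-1.34 ± 0.17, edgeR adjusted p = 1.95e-07). In JJN3 it moved 3, with MXD4 higher (0.80 ± 0.13, edgeR adjusted p = 0.000171) and MYC (-0.75 ± 0.25, 0.0294) and MXD3 (-0.95 ± 0.24, 0.00606) lower, beside 34.4%. With the replicate block MAX (0.00458) and MGA (0.00795) were added to the JJN3 calls. The MYC call there was lost without CX-5461 replicate 2 (-0.52, adjusted p = 0.124 by edgeR), or without replicate 1 (-0.67, adjusted p = 0.106) or 2 (-0.71, adjusted p = 0.0789) with both drugs.

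Departure from additivity compares the log2 fold change of the combined treatment with the sum of the 2 single-drug values, a negative sign meaning that the combination lay lower. In MM1.S it was called for 2 members, both negative, beside 5.52% of all genes. MXD3 departed by -0.999 ± 0.25 (edgeR adjusted p = 0.0176) and MXD1 by -0.79 ± 0.20 (0.0159). CX-5461 alone had raised both genes, and added to panobinostat it gave -0.24 ± 0.19 for MXD3 and -0.17 ± 0.12 for MXD1, neither of them called. Both additivity calls were lost when single libraries were left out: MXD1 without vehicle replicate 1 (-0.75, adjusted p = 0.0504 by edgeR) or CX-5461 replicate 2 (-0.66, adjusted p = 0.0662), and MXD3 without CX-5461 replicate 3 (-0.91, adjusted p = 0.0541), panobinostat replicate 3 (-0.93, adjusted p = 0.0638), or replicate 1 (-0.95, adjusted p = 0.0545) or 2 (-0.84, adjusted p = 0.0531) with both drugs. MYC departed by -0.046 ± 0.36 (edgeR adjusted p = 0.97), so that its log2 falls with the single drugs summed to nearly that with both. In JJN3 it was called for 0 of 9 members, as for 0.0% of all genes (564 at an unadjusted p under 0.05, and 19 by DESeq2).

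The balance between MYC and each of the other 8 members was followed as the log2 ratio of their counts within a library, with 0.5 counts added to each. Scaling between libraries cancels in this ratio. Its absolute value compares different genes and was not read, so that only its change between groups is given. In MM1.S the ratio of MYC to MXD1 was 1.79, 1.77 and 2.07 with vehicle, -0.069, 0.19 and 0.51 with CX-5461, -5.19, -3.81 and -4.37 with panobinostat and -4.998, -5.19 and -5.72 with both drugs. The changes were -1.67, -6.33 and -7.18, or 3.18-fold, 80.6-fold and 145-fold lower. With 2 counts added in place of 0.5, the last was 123-fold. All 8 ratios of MYC to another member were below vehicle in every library of all 3 treated MM1.S groups, with falls of 1.84-fold (MGA) to 3.51-fold (MXD3) with CX-5461 and 8.31-fold (MGA) to 80.6-fold (MXD1) with panobinostat. The 8 ratios share MYC and are not independent. With 3 libraries against 3 the exact two-sided permutation test cannot give a p below 0.1, and it gave 0.1 for each of these.

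In JJN3 the ratio of MYC to MXD1 was 2.26, 3.12 and 2.94 with vehicle, 1.83, 2.57 and 2.82 with CX-5461, 2.48, 2.18 and 2.36 with panobinostat and 1.31, 1.04 and 2.14 with both drugs. Only the last group lay wholly below vehicle, with a change of -1.28 or 2.43-fold. Of the 8 ratios, 3 were wholly below vehicle with CX-5461, 1 with panobinostat (MXD4, 2.16-fold) and 6 with both drugs. The largest JJN3 fall, 2.86-fold for MYC to MXD4 with both drugs, was smaller than the fall of the same ratio in MM1.S, 33.1-fold.

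**Figure D3:**
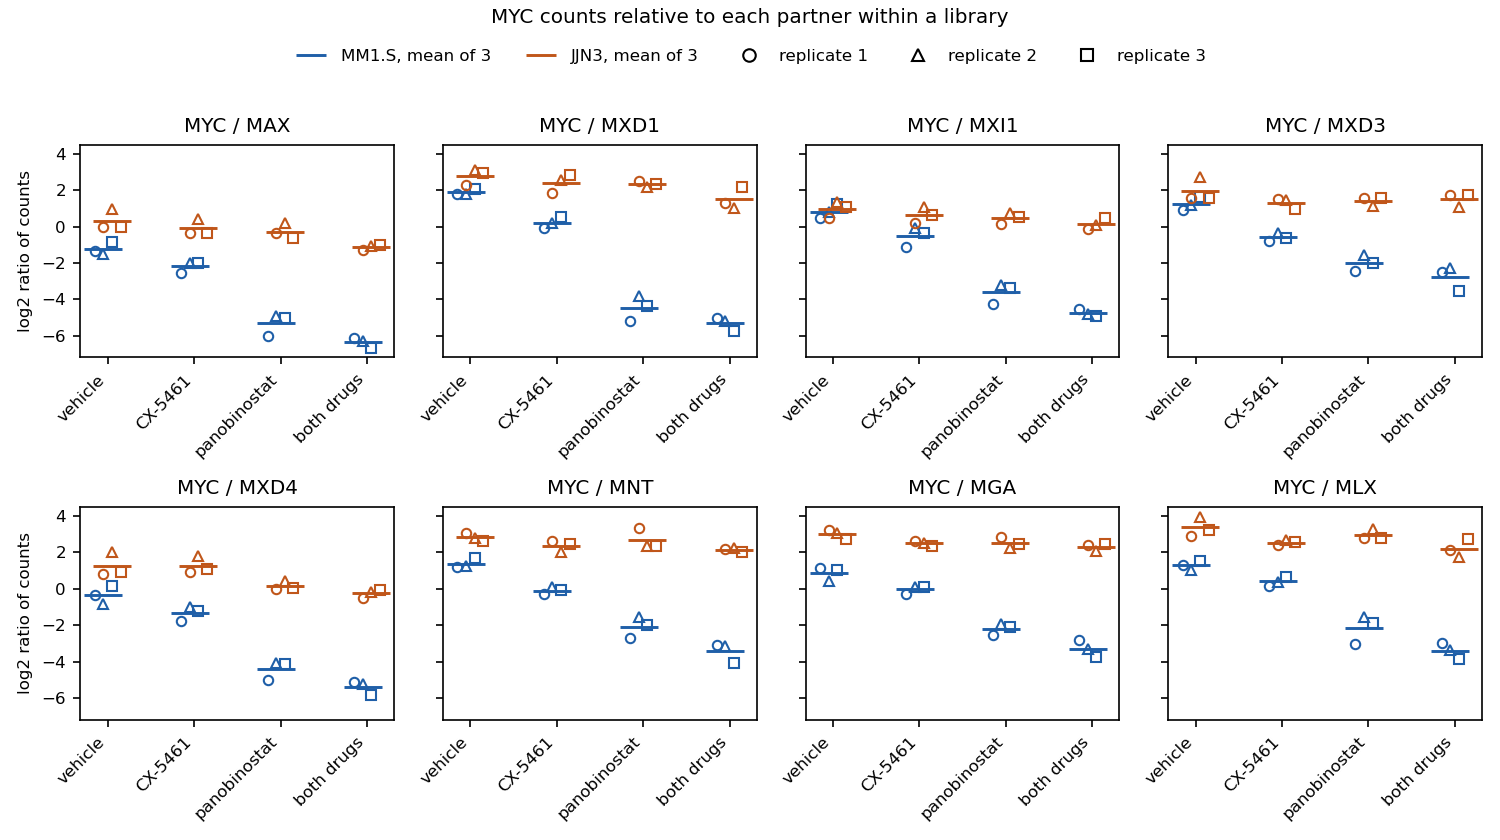
Each panel plots the log2 ratio of MYC counts to the counts of 1 other member within a library, by treatment, for MM1.S (blue) and JJN3 (orange); symbols are libraries by replicate number and bars the mean of 3. All MM1.S libraries of each treatment lie below vehicle in all 8 panels, whereas JJN3 libraries do so with panobinostat in 1 panel.

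The wider family was followed in 4 further genes. MYCL, a MYC paralog, rose with CX-5461 in MM1.S, from 7.64, 7.21 and 7.76 to 16.7, 14.3 and 10.6 CPM (0.87 ± 0.19, edgeR adjusted p = 0.00258), and with both drugs to 12.5, 10.9 and 11.5 CPM (0.63 ± 0.20, edgeR adjusted p = 0.00768). With panobinostat alone it had 9.96, 9.198 and 8.38 CPM (0.29 ± 0.21, edgeR adjusted p = 0.224). In JJN3 MYCL rose with panobinostat, from 10.98, 10.99 and 7.28 to 23.2, 19.1 and 17.1 CPM (1.02 ± 0.23, edgeR adjusted p = 0.00334), and with both drugs to 25.6, 23.00 and 22.9 CPM (1.29 ± 0.22, edgeR adjusted p = 0.000214). The difference between the lines in its response was not called for CX-5461 (-0.85 ± 0.31, edgeR adjusted p = 0.222) or panobinostat (0.76 ± 0.31, 0.0575; 0.0211 with the replicate block). MYCN, the other paralog, had at most 12 counts in a library and was not tested.

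MLXIP, which encodes MondoA, fell in MM1.S with CX-5461, from 31.3, 33.4 and 23.9 to 19.8, 21.1 and 20.9 CPM (-0.51 ± 0.15, edgeR adjusted p = 0.021), and with both drugs (-0.41 ± 0.15, edgeR adjusted p = 0.0216). In JJN3 its log2 fold changes lay between -0.15 and -0.049 and none was called. MLXIPL, which encodes ChREBP, had 0 counts in the 3 JJN3 vehicle libraries, 13 counts over the group with panobinostat and 84 with both drugs. Taking 3 counts over the vehicle group as the limit, it was at least 4.74-fold higher with panobinostat and at least 26.9-fold higher with both. Between these 2 treated groups the log2 fold change was 2.46 ± 0.47. MLXIPL passed the filter on low counts only through the libraries with both drugs, where it is high, so no p-value is given. TXNIP and ARRDC4 are arrestin-like genes that MondoA and MLX activate. With panobinostat in MM1.S TXNIP rose from 443 ± 121 to 3479.9 ± 670.3 CPM (2.98 ± 0.28, edgeR adjusted p = 7.78e-06). ARRDC4 had 4 counts over the vehicle group and 145 with panobinostat (5.08 ± 0.57). It passed the filter on low counts only by the counts of treated libraries, so its p-value is not given. In JJN3 ARRDC4 was left out by the filter on low counts, and TXNIP was tested and not called in the fit without a block. With panobinostat alone TXNIP had a log2 fold change of 0.38 there and was not called with the replicate block either. With both drugs the value against vehicle was 0.45. That comparison called TXNIP higher with the block and also without the filter, as did both drugs against CX-5461. The TXNIP response of JJN3 was lower than that of MM1.S by a log2 difference of -2.58 ± 0.59 (edgeR adjusted p = 0.00275).

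Of the coactivators that MYC recruits, HCFC1 and WDR5 fell with panobinostat in both lines. Of 12 listed, 10 were tested, 5 fell and 0 rose in MM1.S (list median -0.37, all genes 0.066), beside 32.9% of all genes lower and 69.8% called. HCFC1, a host cell factor that binds MYC, fell from 143 ± 15.2 to 26.3 ± 4.42 CPM (-2.44 ± 0.15, edgeR adjusted p = 8.35e-13) and WDR5, a chromatin scaffold, from 124 ± 6.81 to 54.1 ± 3.33 CPM (-1.19 ± 0.10, 1.91e-10). In JJN3 3 of 10 fell and 0 rose, beside 10.9% of all genes lower, among them WDR5 (-0.75 ± 0.12, edgeR adjusted p = 0.000192) and HCFC1 (-0.99 ± 0.16, 0.000289). The HCFC1 response differed between the lines (1.46 ± 0.23, edgeR adjusted p = 1.17e-05). CX-5461 called none of the list in MM1.S.

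Subunits of the SIN3 complex and related corepressors, through which MXD proteins and MNT act, moved in both directions with panobinostat in MM1.S. Of 14 tested, 6 rose and 3 fell (median 0.12), a share called close to the 69.8% of all genes. In JJN3 0 of 14 rose, beside 26.0% of all genes called in either direction, 10.9% of them lower. The 0 is not read as a difference between the lines. In MM1.S ARID4A and ARID4B, SIN3-associated DNA-binding proteins, rose by 1.32 ± 0.12 and 0.87 ± 0.10 on the log2 scale (edgeR adjusted p = 3.34e-10 and 6.18e-08). The histone chaperone RBBP4 fell there, with a value of -0.999 ± 0.14 (edgeR adjusted p = 6.28e-07). With CX-5461 SIN3B fell in MM1.S (-0.52 ± 0.15, edgeR adjusted p = 0.0166), the 1 call of the list.

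Of 11 partners of MGA in PRC1.6, 10 were tested in MM1.S, where panobinostat lowered 6 and raised 2 (median -0.45), beside 32.9% of all genes lower and 69.8% called. The E2F dimerisation partners went opposite ways, TFDP1 from 61.9 ± 3.79 to 22.01 ± 0.948 CPM (-1.49 ± 0.12, edgeR adjusted p = 6.93e-11) and TFDP2 from 16.7 ± 1.68 to 46.3 ± 2.47 CPM (1.48 ± 0.13, 3.37e-10). RYBP, a polycomb adaptor, rose by 0.76 ± 0.12 (edgeR adjusted p = 2.67e-06). In JJN3 4 of 10 fell and 0 rose, beside 10.9% of all genes lower. With the replicate block 5 fell and 2 rose there, beside 4784 of 11411 genes called in either direction. WDR5, which is on this list too, and YAF2, a paralog of RYBP (-0.57 ± 0.17, edgeR adjusted p = 0.0195), were among those that fell. With CX-5461 TFDP2 rose (0.50 ± 0.14, edgeR adjusted p = 0.0121) and the heterochromatin protein gene CBX3 fell (-0.29 ± 0.10, 0.0395) in MM1.S.

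Of 14 listed regulators of MYC transcription, 12 were tested in MM1.S, where CX-5461 raised 2 and lowered 2, beside 16.7% of all genes called. PVT1, the noncoding RNA gene next to MYC, rose from 8.995 ± 3.08 to 28.3 ± 3.23 CPM (1.63 ± 0.23, edgeR adjusted p = 1.2e-05) in the libraries in which MYC fell. IRF4 fell from 297 ± 13.9 to 124 ± 5.61 CPM (-1.26 ± 0.11, edgeR adjusted p = 3.36e-09). Both responses to CX-5461 differed between the lines, by -1.85 ± 0.39 for PVT1 and 1.31 ± 0.19 for IRF4 (edgeR adjusted p = 0.00769 and 9.37e-05). Panobinostat lowered 8 of the 12 and raised 1 in MM1.S (median -0.87), beside 32.9% of all genes lower and 69.8% called. HNRNPK, a nucleic acid binding protein, fell from 1086 ± 43.1 to 434 ± 7.697 CPM and the insulator factor CTCF from 81.04 ± 11.7 to 32.2 ± 0.5002 CPM (-1.31 ± 0.09 and -1.32 ± 0.12, edgeR adjusted p = 2.02e-12 and 3.99e-10). In JJN3 panobinostat lowered 2 of 13, IRF4 (-0.90 ± 0.16, edgeR adjusted p = 0.000506) and CTCF (-0.44 ± 0.13, 0.0174), and raised 1, beside 26.0% of all genes called. The gene raised in both lines was TCF7L2, a Wnt pathway factor. It had 0 counts over the MM1.S vehicle group and 35 with panobinostat, and in JJN3 14 and 61 (2.22 ± 0.50). Its vehicle counts were too few to pass the filter on low counts without those of treated libraries. Its p-value is therefore not given, and its calls are not read as a result. With the replicate block panobinostat lowered 5 of the 13 and raised 2 in JJN3, beside 4784 of 11411 genes called.

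IRF4 is also 1 of the 10 plasma cell markers, and the summed level of that list moved with MYC in MM1.S. It was 8872 to 9729 CPM with vehicle, 7109 to 7706 with CX-5461, 1098 to 1294 with panobinostat and 978 to 1109 with both drugs, with 10 of 10 genes over 1 CPM in each group. In JJN3 it was 4135 to 5203, 3853 to 5206, 3250.3 to 4015 and 2507 to 3182 CPM, with 9 of 10. The part of this in the MYC result was not tested. The lists of 5 B cell, 5 T cell and 5 myeloid markers summed to at most 13.4 CPM in any library.

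Genes that control turnover of the MYC protein moved in both directions with panobinostat. Of 14 listed, 13 were tested in MM1.S and panobinostat raised 5 and lowered 4, beside 69.8% of all genes called. FBXO32, a ubiquitin ligase subunit, rose (17.7 ± 2.04 to 55.7 ± 4.47 CPM, 1.65 ± 0.13, edgeR adjusted p = 5.14e-11), and the kinase gene AURKA, whose product stabilises MYC proteins, fell from 100.5 ± 4.95 to 30.3 ± 1.23 CPM (-1.73 ± 0.13, 1.19e-11). GSK3B, a kinase that marks MYC for degradation, rose and USP36, a nucleolar deubiquitinase, fell (0.57 ± 0.12 and -1.09 ± 0.13, edgeR adjusted p = 0.000225 and 5.1e-08). In JJN3 panobinostat raised 2 of 13 and lowered 3, beside 26.0% of all genes called, with FBXO32 at 0.86 ± 0.15 and AURKA at -0.55 ± 0.17 (edgeR adjusted p = 0.000418 and 0.0226). GSK3B rose there as well and SKP2, a ubiquitin ligase subunit, fell (0.41 ± 0.12 and -0.82 ± 0.19, edgeR adjusted p = 0.0223 and 0.00524). The line differences were -0.77 ± 0.20 for FBXO32 and 1.20 ± 0.22 for AURKA (edgeR adjusted p = 0.0027 and 8.34e-05).

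Of 54 genes listed as activated by MYC, 51 were tested in each line, and more of them fell than rose in every treated group with any call. In MM1.S, 19 fell and 0 rose with CX-5461 (median -0.31, all genes 0.0077; 7.06% of all genes fell), 45 fell and 2 rose with panobinostat (-1.35, all genes 0.066; 32.9% of all genes fell), and 44 fell and 1 rose with both (-1.21, all genes 0.063; 33.2% of all genes fell). In JJN3 0 fell and 0 rose with CX-5461 (-0.19, all genes -0.0031), beside 0.0% of all genes. With panobinostat 26 fell and 1 rose (-0.54, all genes 0.0053), while 10.9% of all genes fell. With both drugs 36 fell and 2 rose (-0.82, all genes 0.005), while 18.2% of all genes fell. With the replicate block 8 fell and 0 rose with CX-5461, beside 157 of 11411 genes called in either direction. The block gave 35 lower and 1 higher with panobinostat, beside 4784 genes called. With both drugs it gave 41 lower and 2 higher, beside up to 6104 genes called in the alternatives. With single libraries left out, 22 to 28 fell with panobinostat and 28 to 38 with both in JJN3. Without replicate 2 of JJN3, 29 fell with panobinostat and 34 with both. The CX-5461 count in MM1.S was 7 without CX-5461 replicate 1 and 10 without vehicle replicate 3. With scaling by total count alone it was 13 lower and 1 higher, and the split over all genes with CX-5461 in MM1.S went from 1165 higher and 849 lower to 1544 and 509, and with both drugs in JJN3 from 2400 and 2072 to 2943 and 1539.

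**Figure D4:**
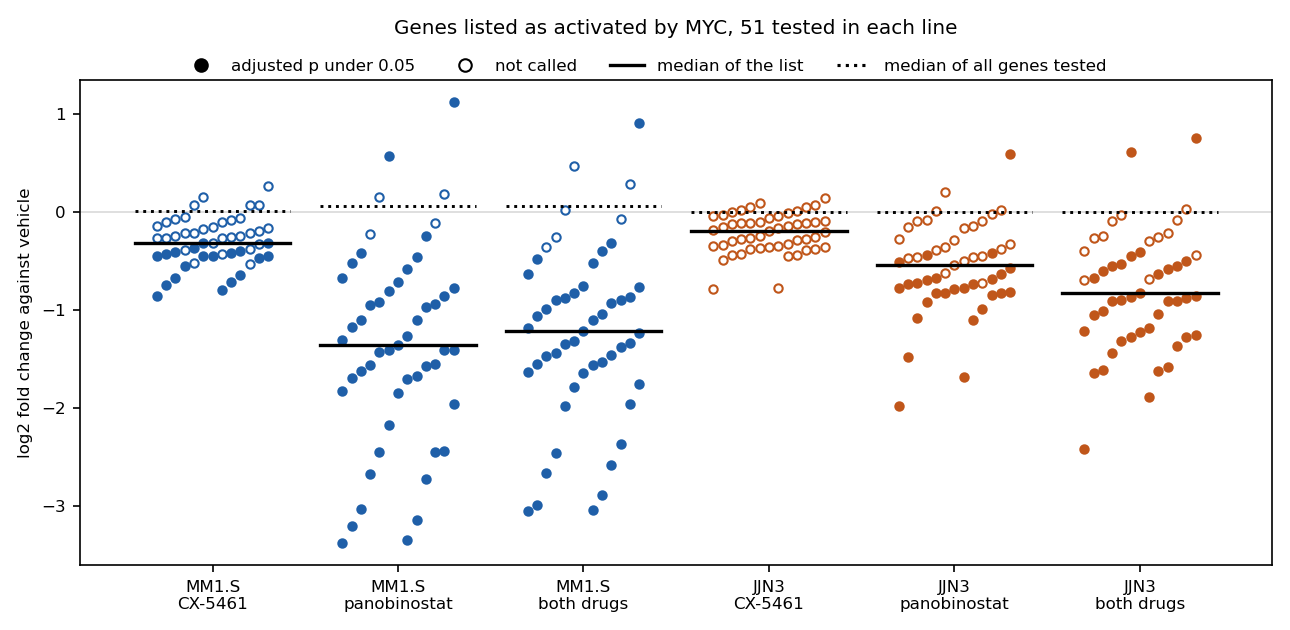
Log2 fold change against vehicle of each of the 51 tested genes listed as activated by MYC, by line and treatment; filled points have an edgeR adjusted p under 0.05, solid bars are the median of the list and dotted bars that of all genes tested. The list median lies below that of all genes in all 6 comparisons, from -0.19 with CX-5461 in JJN3 to -1.35 with panobinostat in MM1.S.

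Among the activated genes, CTPS1, an enzyme of CTP synthesis, fell with panobinostat from 81.7 ± 7.92 to 10.02 ± 1.55 CPM in MM1.S (-3.02 ± 0.14, edgeR adjusted p = 2.04e-15) and from 53.5 ± 1.64 to 19.4 ± 3.41 CPM in JJN3 (-1.48 ± 0.15, 5.32e-06). CCND2, a cyclin of G1, fell from 1187 ± 45.1 to 186 ± 16.2 CPM in MM1.S (-2.67 ± 0.11, edgeR adjusted p = 5.99e-17). NCL, the nucleolar protein nucleolin, fell from 702 ± 19.8 to 329 ± 20.2 CPM in JJN3 (-1.10 ± 0.10, edgeR adjusted p = 3.52e-06). With CX-5461 in MM1.S, NOP16, a ribosome assembly factor, and AMD1, an enzyme of polyamine synthesis, fell (-0.86 ± 0.12 and -0.64 ± 0.10, edgeR adjusted p = 1.84e-05 and 5.58e-05). POLR3G, a subunit of RNA polymerase III, and ODC1, the first enzyme of polyamine synthesis, rose with panobinostat in MM1.S (1.12 ± 0.21 and 0.57 ± 0.22, edgeR adjusted p = 3.23e-05 and 0.0343). PKM, a glycolytic enzyme, was the 1 listed gene that rose with panobinostat in JJN3 (0.59 ± 0.16, edgeR adjusted p = 0.0102), and with both drugs PKM and ODC1 rose there (0.61 ± 0.16 and 0.76 ± 0.19, 0.00491 and 0.0054).

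The panobinostat response of the activated list was tested for a difference between the lines gene by gene. Of 52 tested, 30 had a higher value in JJN3, that is a smaller fall or none, and 1 a lower one (median 0.74, all genes 0.033), beside 18.9% of all genes with a higher value. MRTO4, a ribosome assembly factor, and SRM, spermidine synthase, differed by 2.25 ± 0.22 and 2.39 ± 0.26 (edgeR adjusted p = 3.09e-09 and 3.6e-08). With both drugs 18 were higher and 1 lower, beside 18.8% of all genes higher. With CX-5461 0 and 0 were called.

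Of 14 genes listed as repressed by MYC, 12 were tested in each line. In MM1.S, CX-5461 raised 5 and lowered 0 (beside 16.7% of all genes called), panobinostat raised 8 and lowered 2 (beside 69.8%), and both drugs raised 7 and lowered 4 (beside 70.2%). The CX-5461 count was 3 without any 1 of the 3 CX-5461 or 3 vehicle libraries. In JJN3 the counts were 0 and 0 with CX-5461, 5 and 0 with panobinostat (beside 26.0%) and 4 and 2 with both drugs (beside 39.2%). With the replicate block they were 7 and 1 with panobinostat, beside 4784 of 11411 genes called. With both drugs they were 6 and 3 with the block, beside up to 6104 genes in the alternatives. The 2 that fell with both drugs in JJN3 without the block were NDRG1, a stress-responsive gene (-0.66 ± 0.13, edgeR adjusted p = 0.000524), and BTG2, an antiproliferative gene (-0.64 ± 0.18, 0.00923). CDKN1A, which encodes the cell cycle inhibitor p21, and GADD45A, a stress response gene, rose with CX-5461 in MM1.S by 3.99 ± 0.14 and 1.90 ± 0.14 (edgeR adjusted p = 1.12e-16 and 4.22e-10). Their responses differed between the lines by -3.53 ± 0.24 and -2.03 ± 0.32 (edgeR adjusted p = 5.27e-11 and 0.000929). The lines differ in p53 status and in other ways, and whether these rises are tied to MYC was not tested. CDKN2B, which encodes p15, rose with panobinostat in MM1.S from 0.923 ± 0.349 to 10.4 ± 1.44 CPM (3.49 ± 0.35). It passed the filter on low counts only by the counts of treated libraries, so its p-value is not given. CDKN1B, which encodes p27 and is on the repressed list, fell with panobinostat in MM1.S from 245 ± 9.28 to 59.4 ± 12.7 CPM (-2.03 ± 0.13, edgeR adjusted p = 4.3e-13). KLF6, a zinc finger factor, fell as well (-0.56 ± 0.11, edgeR adjusted p = 0.000121).

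The genes whose pattern was most like that of MYC were ranked by the Pearson correlation of group means of log2 CPM, centred within each line, over the 8 groups and 6216 genes. The first 5 were ANP32E (0.998), a histone H2A.Z chaperone, ATXN7L3 (0.997), a subunit of the SAGA deubiquitinase, REXO2 (0.995), an oligoribonuclease of mitochondria, COX7B (0.995), a subunit of cytochrome c oxidase, and CDV3 (0.995). The points share libraries and scaling. ANP32E, for example, had mean levels of 359, 304, 183 and 144 CPM in MM1.S (vehicle, CX-5461, panobinostat, both) and 418, 391, 362 and 342 CPM in JJN3.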

How the data were processed

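The deposited values are counts per gene, 1 table for each line, which the authors made from 3′ RNA sequencing of poly(A) RNA. HISAT2 2.2.1, featureCounts 2.0.1, limma 3.50.0 and the builds hg19 and GRCh37 stand in the submitters' processing notes, without role or order. The strand setting is not given in the sources used here, so reads of overlapping or antisense genes cannot be told apart. Entrez identifiers were given symbols from a RefSeq table (27745 of 28395 matched). The drug's number is written differently for 2 JJN3 libraries, replicates 2 and 3 of CX-5461, and they were grouped by their titles, which name CX-5461. Libraries held 4751893 to 7305069 counts, which limits the precision of low genes such as MYC with panobinostat.

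Genes passing filterByExpr were tested with edgeR 4.0.16 (TMM scaling, robust quasi-likelihood F test) in 1 fit of 12 libraries per line, and of 24 for comparisons between lines, with Benjamini-Hochberg adjustment over all genes tested and a threshold of 0.05. CPM use the effective library sizes of the 24-library fit, and the log2 fold changes come from the fits. Within-library ratios were compared by exact permutation tests (scipy 1.17.1). R 4.3.3, Python 3.11.15, pandas 2.3.3 and matplotlib 3.10.9 were used.

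Libraries of the same replicate number deviated together in JJN3 (correlations of 0.201 to 0.485 over 18 pairs, median 0.328). The fit with the replicate number as a block is therefore given where it changes a call of a member. In MM1.S the correlations were weaker (-0.0474 to 0.290, median 0.0699; -0.290 to 0.146 for different numbers) and not all above 0.1, so the numbers were not taken to pair the samples.

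The alternatives were RLE scaling, library size alone, no filter, DESeq2 1.42.0, limma-voom 3.58.1, the replicate block, leaving out the 10 most abundant genes, a pseudocount of 2 and leaving out each library. Leaving out the 4 JJN3 libraries of replicate 2 was chosen after seeing the data. On simulated counts with known 2-fold changes the test recovered 95 of 100 genes for panobinostat in MM1.S (11701 genes), 87 of 100 in JJN3 (11205 genes) and 44 of 100 for the difference between the lines (12586 genes). The simulation gave all genes the same spread, changed few genes, took those above a minimum count and drew replicates independently. The real libraries differ in these respects, so the figures are not the power of the tests reported here.

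The members and gene lists were chosen with earlier results of these data known. All 9 members and 4 related genes are named. Genes named from the other lists come from the 2 called genes with the smallest adjusted p in each direction per comparison, and not all of those are printed. A result for 1 gene of the corepressor list is not reported here. Also named are the 5 genes most like MYC among those with a mean log2 CPM of at least 4.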

Additional observations from a re-analysis of the deposited data

Results flagged for a closer look

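The test of the difference in response between the 2 lines passed for 4 network genes with panobinostat and 3 with both drugs (edgeR adjusted p under 0.05, JJN3 value less MM1.S value on the log2 scale). With panobinostat the differences were 2.78 for MYC, -0.61 for MAX, -3.04 for MXD1 and -1.05 for MXI1. With both drugs they were 3.49 for MYC, -2.40 for MXD1 and -1.25 for MXI1. With vehicle all 3 JJN3 libraries were above all 3 MM1.S libraries for both MYC and MXD1. With panobinostat they were above them for MYC and below them for MXD1. The 2 lines differ in more than p53 status, and what sets the differences was not tested. The gap test for a single outlying value needs at least 4 libraries in a group and was not applied.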

How the results depend on the processing

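Of 62 results for single genes followed through the alternatives, 0 changed direction, 12 lost a call and 18 gained one in at least 1 alternative, and 32 kept their side of the threshold throughout. The number of members called moved by more than 1.5 times in 7 of 16 comparisons, and in 6 others by 1 member at most, which is within that tolerance. Both drugs against panobinostat in MM1.S called 0 members and 1 without the filter on low counts, with 0 to 1 when single libraries were left out. Departure from additivity in MM1.S called 2, and 1 to 2 with single libraries left out. In JJN3 CX-5461 called 0 and, with the replicate block, 1. Panobinostat called 2 there, 1 without the 4 libraries of replicate 2, and 0 to 2 with single libraries left out. Both drugs called 3 in JJN3, 6 with the replicate block and 1 to 4 with single libraries left out. Over all genes that comparison called 4472, and 4424 to 6104 in the alternatives other than single libraries left out. Both drugs against panobinostat in JJN3 called 0, and 1 with DESeq2 or the replicate block. Both drugs against CX-5461 in JJN3 called 3, 5 without the filter, 5 with the replicate block and 2 to 4 with single libraries left out. The cause was not tested, except that leaving out libraries leaves fewer samples.

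Over all genes, the replicate block moved the calls from 0 to 157 for CX-5461 in JJN3, 2964 to 4784 for panobinostat in JJN3, 103 to 1399 for both drugs against panobinostat in JJN3, 0 to 105 for additivity in JJN3, 170 to 582 for the CX-5461 difference between lines, and in MM1.S, where the deviations of same-numbered libraries were more weakly related, from 491 to 925 for both drugs against panobinostat and 664 to 1023 for additivity. Without the filter the counts were 31, 439, 46 and 310 for CX-5461, both drugs against panobinostat and additivity in JJN3 and the CX-5461 difference, and DESeq2 gave 19, 262 and 19 for the first 3. Scaling by library size alone moved the median log2 fold change of all genes in MM1.S from 0.066 to 0.20 with panobinostat and from 0.063 to 0.24 with both drugs. With a pseudocount of 2, the log2 change with both drugs in MM1.S was -5.35 in place of -5.56 for MYC to MXI1 and -6.95 in place of -7.18 for MYC to MXD1. The counts of MYC in MM1.S with both drugs (7 to 11 per library) limit how far its level can be compared with that under panobinostat.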
